A study of Mus musculus with 20 samples.

Results

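The 10 genes described here are the Toll-like receptors Tlr1, Tlr2, Tlr4, Tlr6, Tlr7, Tlr8, Tlr9 and Tlr13, the co-receptor Cd14 and the adaptor Myd88. They were given as a list of gene symbols, each of which was matched to 1 of the 37620 Ensembl genes in the count matrix. The list was drawn up with expression values of these mice in view, so the gene levels and their differences are given as a description. The number that passed the fit over all genes is printed only as a count, from which nothing is read. Exon inclusion, which was read from splice junction counts, and the other genes of the pathway were tested. The lists of pathway genes were also drawn up with earlier results of these mice known. Their counts and FDR values are therefore not independent of how those genes were picked.

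RNA was measured in the bone marrow of 20 mice in 4 groups of 5. All were lethally irradiated (C57BL/6 × 129S4Sv/Jae)F1 recipients of marrow that had been pooled from 2 to 3 transgenic donors and had engrafted for at least 6 weeks, and all received doxycycline chow at 625 ppm for 7 days to switch on a transgene through the reverse tetracycline transactivator. Donors were 8 to 12 and recipients 6 to 12 weeks old, and donors and recipients were matched for sex. The transgene encoded either wild-type U2AF1, called U2AF1(WT), or the myelodysplasia mutant U2AF1(S34F). In the last 5 days, mice of each genotype were infused through an intrajugular catheter for 4 h a day with sudemycin D6 at 50 mg per kg per day or with its vehicle, hydroxypropyl-β-cyclodextrin in phosphate buffer, and marrow was taken 18 h after the last dose. Every group, vehicle groups included, therefore carried the irradiation, the transplant, the doxycycline and an induced transgene, and no group lacked a transgene. Residual recipient cells and the makeup of the marrow were not separated in these bulk libraries, in which fewer cells of a type and less RNA per cell cannot be told apart.

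Toll-like receptors are membrane receptors of innate immune cells that bind microbial molecules. Tlr1, Tlr2, Tlr4 and Tlr6 act at the cell surface, where Tlr2 pairs with Tlr1 for triacylated or with Tlr6 for diacylated lipopeptides, and Tlr4 binds lipopolysaccharide with the help of Cd14 and MD-2. Tlr7, Tlr8, Tlr9 and Tlr13 sit in endosomes, which they reach with the chaperone Unc93b1, and bind nucleic acids. All of the receptors listed here signal through Myd88, which assembles IRAK kinases and leads to NF-κB and interferon regulatory factors. In marrow the genes are used mainly by neutrophils, monocytes, macrophages and dendritic cells. Sudemycin D6 binds the SF3B1 complex, which recognises the branch point, and U2AF1 contacts the AG at the 3′ end of the intron, where the S34F form favours CAG over TAG.

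All 10 genes were expressed. With sudemycin D6 in U2AF1(S34F) mice the log2 difference was above 0 for all 10, with a median of 0.31. The other comparisons held differences in both directions. These values were in view when the genes were chosen, so nothing is read from the shared direction. Cd14, Tlr2 and Tlr9 had lower levels in U2AF1(S34F) than in U2AF1(WT) mice under vehicle, with differences of -1.0 ± 0.17, -0.85 ± 0.08 and -1.83 ± 0.28 on the log2 scale (± SE, 5 mice a group), whereas that of Tlr1 was 0.39 ± 0.16. Tlr4 and Tlr7 were higher with sudemycin D6 in both genotypes. Myd88 was higher with the drug by 0.25 ± 0.11 and 0.26 ± 0.08 and had nearly equal means in the 2 genotypes. Separately from the gene levels, exon 2 of Myd88 and exon 2 of Tlr8 were included more often in U2AF1(S34F) mice under vehicle by the edgeR test, although not by every other test run on the same reads.

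Between 41145892 and 62138138 reads were counted on genes per mouse (median 51836276). Levels are counts per 1000000 counted reads (CPM), scaled by edgeR's TMM factors, and log2 differences are those of the edgeR fit with SE. U2af1 itself was at 36.1 ± 1.38 and 42.7 ± 3.88 CPM (n = 5, SD) in U2AF1(WT) mice on vehicle and drug and at 51 ± 3.32 and 54.7 ± 2.79 CPM in the corresponding U2AF1(S34F) mice. This count does not separate transgene from endogenous U2af1, and the mutant codon is not visible in it. Each of the 10 U2AF1(WT) mice had 39145 to 78640 counts of Xist, whereas each of the 10 U2AF1(S34F) mice had 1 to 8, and 4 Y-linked genes summed to 0 to 4 and 10270 to 15034 counts. The genotype comparisons therefore also compare mice with female and male transcripts, and genotype and sex cannot be told apart. In a principal component analysis, sudemycin-treated U2AF1(WT) replicates 8 and 9 lay apart from the other mice on the second component, and the main results that use these mice are also given without each of them. The drug and genotype comparisons share groups, so their differences are not independent of each other.

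The filter on low counts kept all 10 genes in every comparison. With sudemycin D6, 4 of the 10 passed FDR<10% in U2AF1(WT) mice, where 3.07% of all tested genes did, and 5 in U2AF1(S34F) mice, where 10.8% did. Between genotypes, 6 passed under vehicle against 39.5% of all genes and 4 under sudemycin D6 against 36.8%. The ranges of the 2 groups did not overlap for 3, 3, 3 and 1 of the 10 genes in these comparisons, and for 4.15%, 7.80%, 20.2% and 19.7% of all genes. In the interaction of genotype and drug, 0 of the 10 passed, where 0.0130% of all genes did. These contrasts were in view when the genes were chosen, and nothing is read from the counts. The median log2 difference of the 10 genes was 0.03, 0.31, -0.01 and 0.11 in the 4 pairwise comparisons in the same order, and that of all tested genes was 0.00405, -0.00909, 0.00207 and -0.0269.

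**Figure D1:**
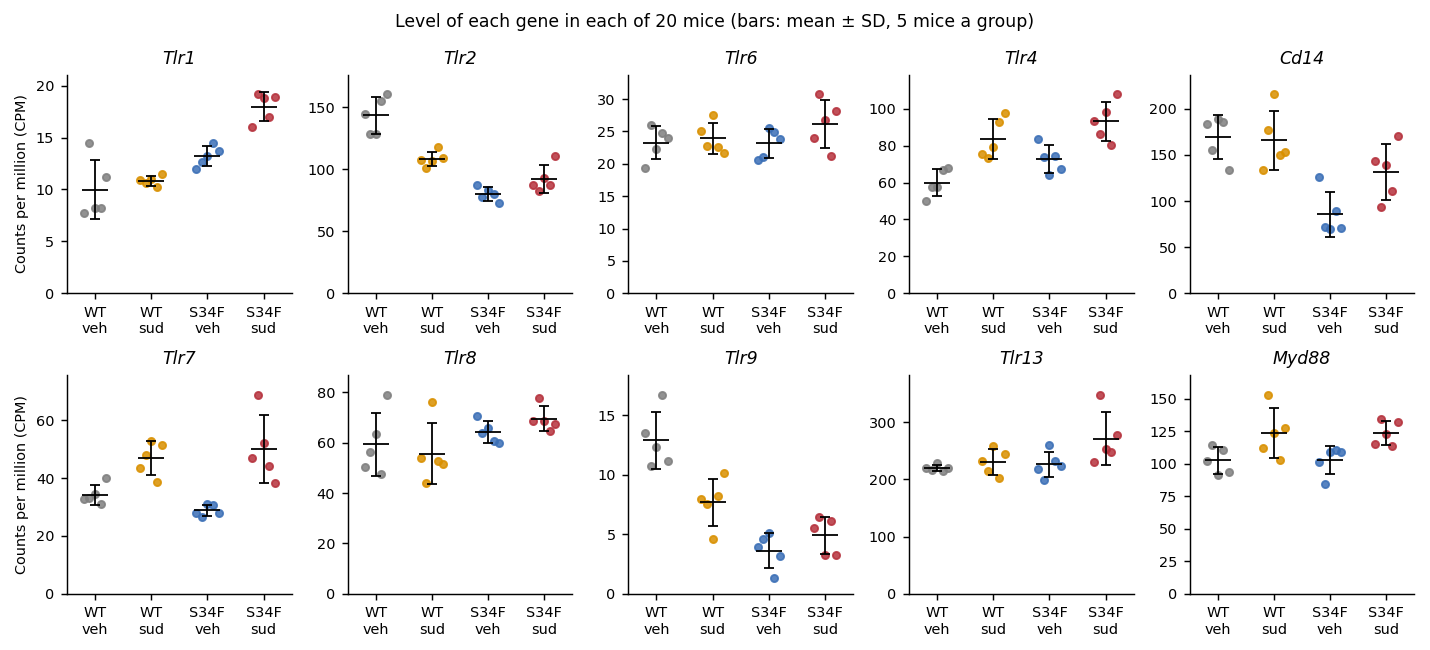
Level of each of the 10 genes in CPM (vertical axis, linear, starting at 0) in the 4 groups of 5 mice. Points are mice and bars are the mean with SD. Tlr9 runs from 10.7 to 16.7 CPM in vehicle-treated U2AF1(WT) mice and from 1.31 to 5.10 CPM in vehicle-treated U2AF1(S34F) mice, and the Tlr2 points of these groups are also apart.

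Divided by exon length, the levels of the 10 genes spanned from Cd14 at 108 ± 15.2 CPM per kb to Tlr9 at 3.71 ± 0.691 CPM per kb (mean ± SD of 5 mice) in vehicle-treated U2AF1(WT) mice. After Cd14 came Tlr13 at 53.8 ± 1.41, Tlr2 at 47.6 ± 4.87 and Myd88 at 39.8 ± 3.94 CPM per kb, each overlapping with its neighbour in the order. Tlr8 followed at 16.5 ± 3.51 CPM per kb, apart from Myd88 above and Tlr4 below. Tlr4, Tlr6 and Tlr7 stood at 10.8 ± 1.34, 8.94 ± 0.989 and 8.38 ± 0.837 CPM per kb with overlapping neighbours, and Tlr1 and Tlr9 closed the order and overlapped. In vehicle-treated U2AF1(S34F) mice Tlr13 (55.4 ± 5.37) and Cd14 (54.5 ± 15.3) overlapped at the top of the order, and Tlr9 was last at 1.05 ± 0.427 CPM per kb.

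Tlr2, the shared partner of the lipopeptide receptors (chromosome 3, 83640195 to 83645689, minus strand, mouse build NCBI37/mm9 as are all coordinates here), was highest in vehicle-treated U2AF1(WT) mice. These mice were at 129, 129, 145, 155 and 160.4 CPM, and the sudemycin-treated U2AF1(WT) mice were at 101, 106, 107, 109 and 118 CPM. Every drug-treated mouse lay below every vehicle-treated mouse of this genotype. The U2AF1(S34F) mice were at 72.9, 77.4, 80.0, 83.2 and 87.6 CPM under vehicle and at 82.4, 87, 87.7, 93.1 and 111 CPM under the drug, so that the vehicle-treated mice of the 2 genotypes did not overlap. Drug minus vehicle was -0.42 ± 0.09 on the log2 scale in U2AF1(WT) mice (-0.40 without replicate 8 and -0.41 without replicate 9) and 0.20 ± 0.08 in U2AF1(S34F) mice, where the groups overlapped. U2AF1(S34F) minus U2AF1(WT) was -0.85 ± 0.08 under vehicle and -0.24 ± 0.09 under sudemycin D6, the latter with overlapping groups (-0.25 and -0.23 without the same replicates).

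The partners of Tlr2, Tlr1 and Tlr6, are neighbours on chromosome 5 (65316050 to 65324000 and 65344345 to 65351287, both on the minus strand) and close paralogues. How reads that match both were counted is not given in the sources used here, so part of either level may be uncertain. Tlr1 was at 7.76, 8.21, 8.26, 11.2 and 14.5 CPM in vehicle-treated and at 10.3, 10.6, 10.9, 11 and 11.5 CPM in sudemycin-treated U2AF1(WT) mice. It was at 11.9, 12.7, 13.2, 13.7 and 14.5 CPM in vehicle-treated and at 16, 17, 18.9, 18.9 and 19.2 CPM in sudemycin-treated U2AF1(S34F) mice. The last group lay above all mice of the other 3 groups. The drug effect was 0.44 ± 0.08 in U2AF1(S34F) and 0.10 ± 0.16 in U2AF1(WT) mice on the log2 scale, and the latter groups overlapped. U2AF1(S34F) minus U2AF1(WT) was 0.72 ± 0.08 under the drug (0.72 and 0.74 without replicates 8 and 9 in turn) and 0.39 ± 0.16 under vehicle, where the groups overlapped because 1 vehicle-treated U2AF1(WT) mouse was at 14.5 CPM. Tlr6 ranged from 19.3 to 25.9, 21.7 to 27.5, 20.6 to 25.5 and 21.2 to 30.7 CPM in the 4 groups, which all overlapped, and its log2 differences were between -0.02 and 0.17 with an SE of 0.10 to 0.11.

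Tlr4, the lipopolysaccharide receptor (chromosome 4, 66488618 to 66591318, plus strand), was higher with sudemycin D6 in both genotypes. The U2AF1(WT) mice were at 49.9, 57.6, 57.8, 66.6 and 68.1 CPM under vehicle and at 73.2, 75.3, 79.1, 93 and 97.4 CPM under the drug, and these groups did not overlap. The U2AF1(S34F) mice were at 64.3, 67.3, 73.8, 74.2 and 83.6 CPM under vehicle and at 80.1, 86.4, 93.3, 98.4 and 108 CPM under the drug, and here the highest vehicle-treated mouse lay within the drug group. Drug minus vehicle was 0.46 ± 0.11 and 0.36 ± 0.09 on the log2 scale, the first of which was 0.51 and 0.48 without replicates 8 and 9 in turn. For genotype, U2AF1(S34F) minus U2AF1(WT) was 0.26 ± 0.10 under vehicle and 0.15 ± 0.11 under the drug, with overlapping groups in both.

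Cd14 hands lipopolysaccharide to Tlr4 and is a classical monocyte surface protein. It was at 134, 156, 184, 186 and 189 CPM in vehicle-treated U2AF1(WT) mice and at 69.9, 70.6, 72.2, 89.2 and 126 CPM in vehicle-treated U2AF1(S34F) mice. All of the latter lay below all of the former, although 1 U2AF1(S34F) mouse at 126 CPM came close. With sudemycin D6 the U2AF1(WT) mice were at 133, 149.7, 154, 177 and 216 CPM and the U2AF1(S34F) mice at 93.3, 110.5, 139, 143 and 171 CPM, and these groups overlapped. U2AF1(S34F) minus U2AF1(WT) was -1.0 ± 0.17 under vehicle and -0.34 ± 0.16 under the drug on the log2 scale (-0.31 and -0.22 without replicates 8 and 9 of the drug-treated U2AF1(WT) mice in turn). For sudemycin D6 it was 0.61 ± 0.20 in U2AF1(S34F) and -0.05 ± 0.13 in U2AF1(WT) mice, with overlap in both.

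Marker genes of the myeloid cells that carry the surface receptors were measured in the same mice. The summed level of 6 late neutrophil markers was 32631 to 46048 and 33953 to 66986 CPM in vehicle- and drug-treated U2AF1(WT) mice and 58835 to 98394 and 48334 to 87555 CPM in the corresponding U2AF1(S34F) mice. Under vehicle the genotypes did not overlap in this sum, and 3 of the 6 markers passed FDR<10% as higher in U2AF1(S34F), as did 2 under the drug. The median log2 difference of the 6 markers between genotypes was 0.25 under vehicle and 0.05 under the drug. The sum weighs abundant genes more than this median does. For 6 monocyte markers the sum was 1866 to 2772 and 1759 to 2056 CPM in U2AF1(WT) and 1501 to 2301 and 2062 to 2858 CPM in U2AF1(S34F) mice in the same order, with 3 of 6 markers lower in U2AF1(S34F) under vehicle and 2 higher and 1 lower under the drug, where the genotypes did not overlap in the sum. With sudemycin D6, 1 of the 6 was higher in U2AF1(S34F) mice. For 6 macrophage markers it was 100.4 to 146, 128 to 155, 149 to 235 and 161 to 198 CPM in the 4 groups, apart between the genotypes in both treatments, with 1 of 6 markers higher in U2AF1(S34F) in each. The 4 early neutrophil markers summed to 2211 to 2674, 2126 to 3166, 2360.1 to 3289 and 2273 to 3906 CPM, overlapping throughout, with 2 of 4 markers higher in U2AF1(S34F) in each treatment. Of all genes, 19.7% were called higher and 19.8% lower in U2AF1(S34F) under vehicle, and 17.2% and 19.6% under the drug. The genotypes did not overlap for 20.2% and 19.7% of all genes. With the drug in U2AF1(S34F) mice, 4.94% were called higher. Median log2 differences between genotypes under vehicle and drug were -0.47 and 0.09 for the monocyte markers and 0.31 and 0.11 for the macrophage markers. None of these markers was at or under 3 counts in every mouse. The part of cell makeup in the member levels was not tested.

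Tlr7, Tlr8 and Tlr13 lie on the X chromosome. Of the X-linked genes without Xist, 39.6% passed FDR<10% between genotypes under vehicle and 36.7% under the drug, next to 39.5% and 36.8% of all genes. Their median log2 differences were 0.10 and 0.14, and those of autosomal genes 0.000174 and -0.0313. The part of sex in the levels of these receptors cannot be told apart from that of genotype. Tlr7, a receptor for single-stranded RNA (163742861 to 163768490, minus strand), was at 30.9, 32.7, 33.1, 34.4 and 39.9 CPM in vehicle-treated U2AF1(WT) mice and at 38.5, 43.6, 47.9, 51.5 and 52.8 CPM with sudemycin D6, with a small overlap. In U2AF1(S34F) mice it was at 26.4, 27.8, 28, 30.7 and 31.1 CPM under vehicle and at 38.2, 44.3, 46.9, 52.2 and 68.9 CPM with the drug. All drug-treated mice of this genotype lay above all vehicle-treated ones, and 1 of them stood well above the others. With the drug the difference was 0.43 ± 0.10 in U2AF1(WT) (0.43 and 0.39 without replicates 8 and 9 in turn) and 0.79 ± 0.13 in U2AF1(S34F) mice on the log2 scale. U2AF1(S34F) minus U2AF1(WT) was -0.26 ± 0.08 under vehicle and 0.09 ± 0.14 under the drug, with overlap in both. When each mouse was left out in turn, the value under the drug ran from -0.04 to 0.18.

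Tlr13, which binds bacterial ribosomal RNA in mice (103338543 to 103355832, plus strand), had the highest level of the endosomal receptors per kb. It ranged from 214 to 229 and 203 to 258 CPM under vehicle and drug in U2AF1(WT), and from 199 to 259.5 and 229.9 to 348 CPM in U2AF1(S34F) mice. The groups overlapped in each of the 4 comparisons, and the log2 differences were 0.05 ± 0.09 and 0.26 ± 0.11 for the drug and 0.03 ± 0.08 and 0.23 ± 0.11 for the genotype.

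Tlr9, the receptor for unmethylated CpG DNA (chromosome 9, 106124929 to 106129207, plus strand), had the widest ratio between group means of the 10 genes. The vehicle-treated U2AF1(WT) mice were at 10.7, 11.2, 12.3, 13.5 and 16.7 CPM and the sudemycin-treated ones at 4.56, 7.57, 7.94, 8.19 and 10.1 CPM, without overlap. The vehicle-treated U2AF1(S34F) mice were at 1.31, 3.19, 3.94, 4.61 and 5.10 CPM, all below the vehicle-treated U2AF1(WT) mice, and the sudemycin-treated ones were at 3.21, 3.24, 5.52, 6.11 and 6.43 CPM. The lowest mouse had 74 counts for the gene, so its level is known less well than the others. Drug minus vehicle was -0.76 ± 0.19 on the log2 scale in U2AF1(WT) (-0.75 without replicate 8, -0.62 without replicate 9) and 0.43 ± 0.32 in U2AF1(S34F) mice. U2AF1(S34F) minus U2AF1(WT) was -1.83 ± 0.28 under vehicle and -0.65 ± 0.24 under the drug, the latter with overlap (-0.64 and -0.77 without replicates 8 and 9 in turn).

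Plasmacytoid dendritic cells and B cells are known for high Tlr9. Their marker sums lay below those of the neutrophil and monocyte markers in every group. The 4 plasmacytoid dendritic cell markers summed to 8.62 to 22.8 and 3.69 to 10.1 CPM in vehicle- and drug-treated U2AF1(WT) mice and to 4.60 to 16.9 and 3.08 to 7.09 CPM in U2AF1(S34F) mice. The genotypes overlapped in both treatments, and 1 marker was lower in U2AF1(S34F) in each. The median log2 difference of the tested markers was -0.21 under vehicle and -0.55 under the drug. The 6 B-cell markers summed to 37.9 to 137, 24.9 to 172, 15.8 to 156 and 34.1 to 51.6 CPM in the 4 groups, which overlapped, and 4 of the 6 were lower in U2AF1(S34F) under the drug. No marker of either list was at or under 3 counts in every mouse. Whether these cells contributed to the Tlr9 level was not tested. Markers of conventional dendritic cells, erythroid cells, T and NK cells, megakaryocytes and stroma were also measured, and 0 to 3 of each list passed in any comparison, next to the shares of all genes given above.

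**Figure D2:**
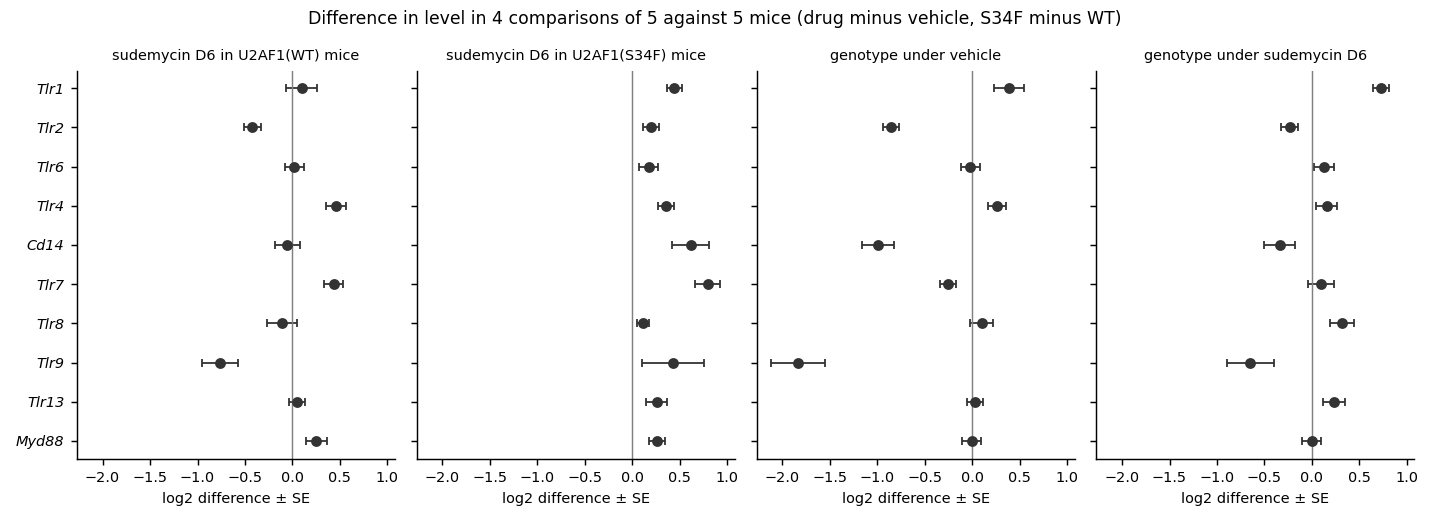
Log2 differences of the 10 genes in the 4 comparisons (horizontal axis, log2 scale, 0 at the vertical line) with bars of 1 SE. The genotype difference of Tlr9 under vehicle at -1.83 lies farthest from 0, and those of Myd88 lie at 0.

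Tlr8 lies next to Tlr7 on the X chromosome (163680626 to 163702261, minus strand). It is the counterpart of the human RNA receptor TLR8. The 4 groups ranged from 47.6 to 79.1, 44.2 to 76.3, 59.8 to 70.5 and 64.8 to 77.9 CPM and all overlapped. The log2 differences were -0.11 ± 0.16 and 0.11 ± 0.07 for the drug and 0.10 ± 0.12 and 0.32 ± 0.12 for the genotype under vehicle and drug. The last of these was 0.25 without replicate 8 and 0.47 without replicate 9 of the sudemycin-treated U2AF1(WT) mice.

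Exon inclusion is given as Ψ, the share of junction reads that support the exon after the reads on its 2 junctions were divided by 2, so that 1 means always included. A cassette exon event was called at FDR<10% (edgeR quasi-likelihood test over all events) with a change of Ψ of more than 1%. An exact permutation test over mice, two-sided, is given beside it, and with 5 against 5 mice its smallest possible p is 0.00794. Of the events of the 10 genes with enough reads, 0 of 12, 0 of 10, 2 of 10 and 1 of 12 were called for the drug in U2AF1(WT) mice, the drug in U2AF1(S34F) mice, the genotype under vehicle and the genotype under the drug. Of all events, 0.844%, 1.26%, 3.34% and 2.98% were called in these comparisons. The called events were exon 2 of Myd88 and exon 2 of Tlr8, and no event was called in the interaction of genotype and drug, in which 0.00% of all events were called. In the interaction, Ψ of Myd88 exon 2 had a difference of -0.0144 (FDR 1.0, unadjusted p of the edgeR fit 0.0713) and that of Tlr8 exon 2 a difference of -0.0206 (FDR 1.0, unadjusted p of the edgeR fit 0.685).

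Exon 2 of Tlr8 (X, 163701681 to 163701822, 142 bases) holds the end of the 5′ untranslated region and the ATG of the full-length annotated reading frame as its last codon. Its last 27 bases are shown because they carry this start codon, in capitals, and its 3′ splice site is shown with the last 3 intron bases in capitals.
Tlr8 exon 2, end (chrX:163701681-163701707, minus strand): tttaccttcctttgtctatagaacATG
Tlr8 exon 2, 3′ splice site (chrX:163701820-163701842, minus strand): aatattatcattctgaaCAGgaa
The annotation also holds a transcript without this exon whose reading frame starts at a later ATG in the next exon. Ψ was 0.606, 0.608, 0.618, 0.661 and 0.689 in vehicle-treated U2AF1(WT) mice and 0.738, 0.747, 0.778, 0.796 and 0.816 in vehicle-treated U2AF1(S34F) mice. The groups did not overlap. The mean was higher by 0.138 in U2AF1(S34F) (edgeR FDR 0.000146, exact permutation p = 0.00794, the smallest possible). With sudemycin D6, Ψ was 0.529, 0.566, 0.585, 0.615 and 0.803 in U2AF1(WT) and 0.655, 0.669, 0.744, 0.798 and 0.821 in U2AF1(S34F) mice, which overlapped because of 1 U2AF1(WT) mouse, replicate 12, at 0.803. This difference of 0.118 had an edgeR FDR of 0.00112 and an exact permutation p of 0.0873. Without replicates 8 and 9 in turn it was 0.0952 (edgeR FDR 0.0224) and 0.109 (edgeR FDR 0.00920).

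Sudemycin D6 itself gave differences of -0.0169 and -0.0376 in the Ψ of Tlr8 exon 2 in U2AF1(WT) and U2AF1(S34F) mice, which were not called (edgeR FDR 0.668 and 0.646, exact permutation p 0.778 and 0.357). The exon rested on 330.0 to 695 junction reads per mouse. Skipping reads summed to 587 and 504 in vehicle- and drug-treated U2AF1(WT) mice and to 333 and 410 in the corresponding U2AF1(S34F) mice. The genotype call under vehicle was lost when edgeR estimated the dispersion (FDR 0.522), and the call under the drug was lost in that fit (FDR 0.562) and with limma (FDR 0.681).

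**Figure D3:**
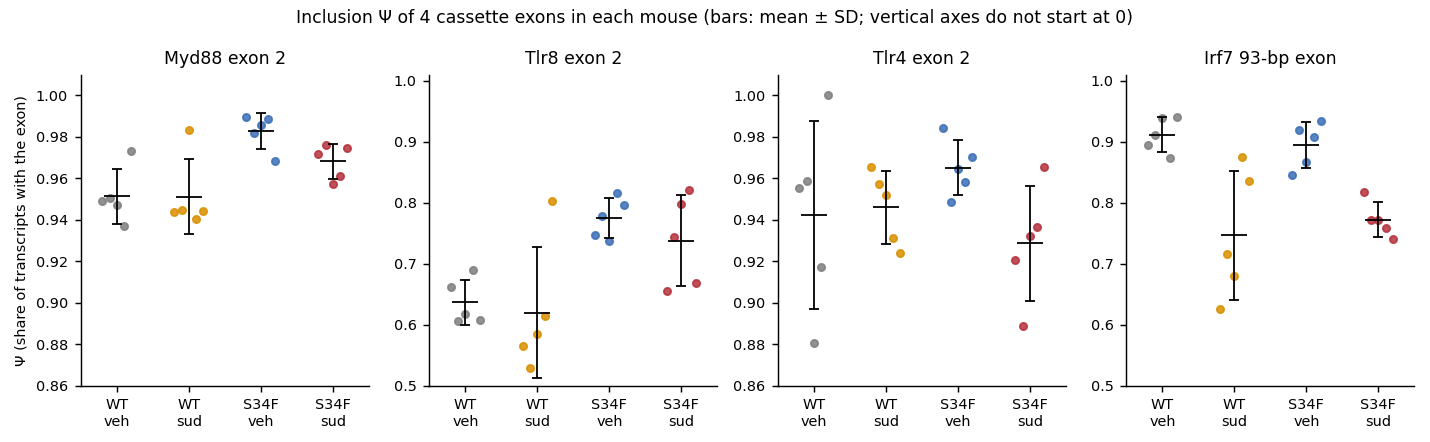
Inclusion Ψ (vertical axis, not starting at 0, 1 = always included) of exon 2 of Myd88, Tlr8 and Tlr4 and of a 93-bp exon of Irf7 in the 4 groups. Points are mice and bars the mean with SD. For Tlr8 the vehicle-treated mice of the 2 genotypes are apart, at 0.606 to 0.689 and 0.738 to 0.816.

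Myd88 (chromosome 9, 119245052 to 119250529, minus strand) joins all of these receptors to their kinases. The vehicle-treated U2AF1(WT) mice were at 91.5, 93.8, 102, 111 and 115 CPM and the sudemycin-treated ones at 103, 112, 123, 128 and 153 CPM, with overlap. The U2AF1(S34F) mice were at 84.5, 101, 109, 109 and 111 CPM under vehicle and at 114, 115, 123, 132 and 134 CPM with the drug, and these groups did not overlap. The differences between drug and vehicle were 0.25 ± 0.11 and 0.26 ± 0.08 on the log2 scale in U2AF1(WT) and U2AF1(S34F) mice, and 0.17 and 0.25 in U2AF1(WT) without replicates 8 and 9 in turn. Between genotypes it was -0.00 ± 0.10 under vehicle and -0.00 ± 0.10 under the drug.

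Exon 2 of Myd88 has 135 bases, a multiple of 3, and encodes the intermediate domain that recruits IRAK4. Myd88 without it is known as the short form, which still binds receptors but does not pass the signal on. The exon is shown in capitals with 10 bases of intron on each side, because the junction counts separate the 2 forms by it.
Myd88 exon 2 (chr9:119247694-119247828, minus strand): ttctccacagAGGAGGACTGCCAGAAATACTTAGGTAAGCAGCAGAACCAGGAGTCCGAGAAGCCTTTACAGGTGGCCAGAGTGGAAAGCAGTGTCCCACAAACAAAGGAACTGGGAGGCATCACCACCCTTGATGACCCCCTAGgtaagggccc
Its 3′ splice site is given beside that of Tlr4 exon 2 with the last 3 intron bases in capitals, since the base before the AG is the one that U2AF1(S34F) is known to read differently.
Myd88 exon 2, 3′ splice site (chr9:119247826-119247848, minus strand): cacccttctcttctccaCAGagg
Tlr4 exon 2, 3′ splice site (chr4:66494908-66494930, plus strand): ttgttgtgtggtatttaCAGgta
These exons and Tlr8 exon 2 all follow a CAG. The 69-base exon of Tlr1 follows a TAG and was not called between genotypes, unlike some pathway exons after a TAG that are given below. Its Ψ differed by 0.0123 under vehicle (edgeR FDR 0.993) and -0.0183 under the drug (edgeR FDR 0.655), on 26 to 126 junction reads per mouse. Of the 49752 acceptors of tested cassette exons, 59.0% had C, 34.1% T, 6.51% A and 0.384% G at this place, so a C there is the usual base.

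Ψ of Myd88 exon 2 was 0.937, 0.947, 0.949, 0.951 and 0.973 in vehicle-treated U2AF1(WT) mice and 0.968, 0.982, 0.985, 0.988 and 0.990 in vehicle-treated U2AF1(S34F) mice. The highest U2AF1(WT) mouse lay above the lowest U2AF1(S34F) mouse, and the others were apart. The mean was higher by 0.0313 in U2AF1(S34F) (edgeR FDR 0.00391, exact permutation p = 0.0159). This call was lost with limma (FDR 0.212) and when edgeR estimated the dispersion (FDR 0.522). In reads, skipping junctions summed to 168 over the 5 vehicle-treated U2AF1(WT) mice and to 67 over the 5 vehicle-treated U2AF1(S34F) mice, out of 885 to 1962 junction reads per mouse in all groups. The exon was therefore included in most transcripts of every mouse.

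With sudemycin D6, Ψ of Myd88 exon 2 was 0.940, 0.944, 0.944, 0.945 and 0.983 in U2AF1(WT) mice. It was 0.957, 0.961, 0.972, 0.974 and 0.976 in the U2AF1(S34F) mice, within the range of the former. In U2AF1(WT), 4 of the 5 drug-treated mice lay within a narrow band and replicate 9 stood above them. Their mean differed from vehicle by -0.000214 (edgeR FDR 0.974, exact permutation p = 0.984), and by -0.00819 without replicate 9 (edgeR FDR 0.711). In U2AF1(S34F), drug minus vehicle was -0.0146, which was not called (edgeR FDR 0.376, exact permutation p = 0.0397 before adjustment). Between genotypes under the drug the difference of 0.0169 was not called either (edgeR FDR 0.294, exact permutation p = 0.0794), and was 0.0249 without replicate 9 (edgeR FDR 0.106) and 0.0153 without replicate 8 (edgeR FDR 0.451).

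No other event of the 10 genes was called in any comparison. Exon 2 of Tlr4 (167 bases, chromosome 4, 66494928 to 66495094) had Ψ of 0.949, 0.958, 0.965, 0.970 and 0.984 under vehicle and 0.889, 0.920, 0.932, 0.937 and 0.965 under the drug in U2AF1(S34F) mice, and the groups overlapped. The difference of -0.0365 had an edgeR FDR of 0.119 and an exact permutation p of 0.0317 before adjustment. In U2AF1(WT) mice it was 0.00358 (edgeR FDR 0.987). The 168-base exon of Tlr13 (X, 103342785 to 103342952) was almost always included, at 0.983 to 1.0 in all 20 mice. The 69-base exon of Tlr1 (chromosome 5, 65321394 to 65321462) was at 0.842 to 1.0. Exons of 68 and 81 bases in Tlr7 (X, 163746721 to 163746788 and 163747213 to 163747293) gave 4 overlapping events, for some of which a mouse had as few as 7.00 reads, so moderate changes were not detectable there. No cassette event of Tlr2, Tlr6, Tlr9 or Cd14 was among those tested.

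Beyond the 10 genes, 84 genes of the same pathway were grouped by role, 77 or 78 of which were tested in each pairwise comparison. These lists were drawn up with earlier results of these mice known, so the counts are not independent of that choice. With sudemycin D6, 2 of 78 were higher and 14 lower in U2AF1(WT) mice (16 called, against 3.07% of all genes, 1.18% higher and 1.89% lower), and 2 of 78 were higher and 6 lower in U2AF1(S34F) mice (8 called, against 10.8%, 4.94% higher and 5.85% lower, and 8 higher and 10 lower with DESeq2). Between genotypes, 2 of 77 were higher and 33 lower in U2AF1(S34F) under vehicle (35 called, against 39.5%), and 7 were higher and 32 lower under the drug (39 called, against 36.8%). Of all genes, 19.8% and 19.6% were called lower and 19.7% and 17.2% higher between genotypes. The median log2 difference of the pathway genes was -0.05 and 0.03 for the drug and -0.27 and -0.21 for the genotype. Without replicates 8 and 9 in turn, 14 and 12 genes were called for the drug in U2AF1(WT) mice and 34 and 36 for the genotype under the drug. The count for the drug in U2AF1(WT) fell to 8, 10 and 10 without vehicle replicates 1, 3 and 5 in turn, and that in U2AF1(S34F) to 5 without sudemycin replicate 6.

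**Figure D4:**
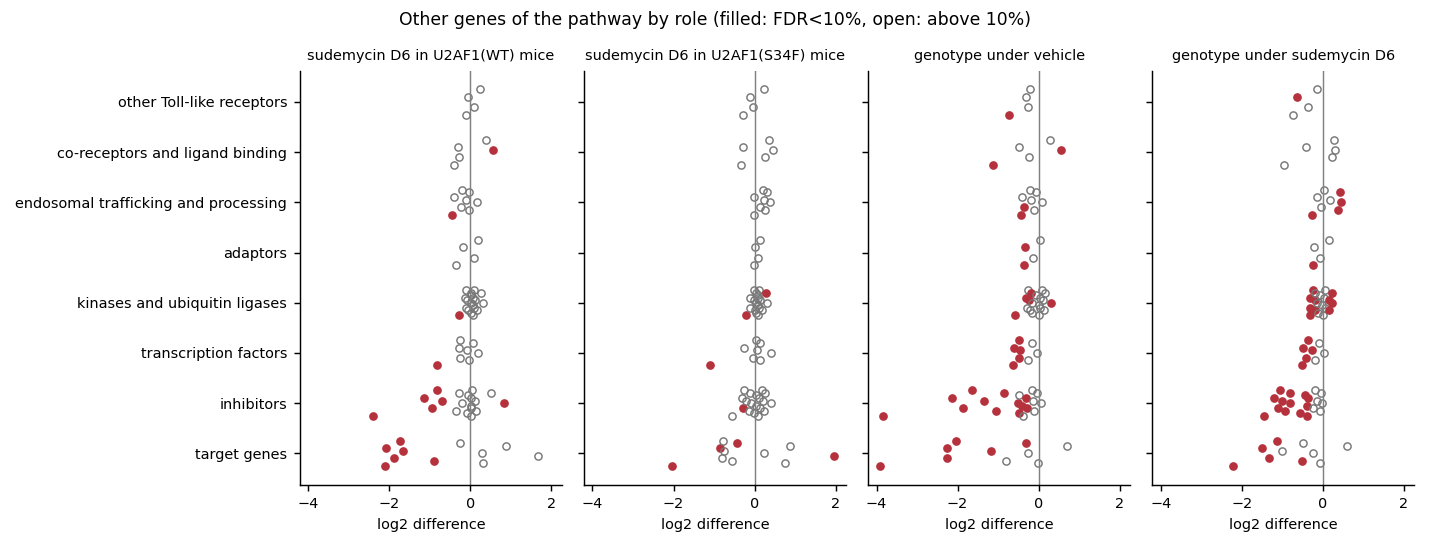
Log2 differences of the tested pathway genes by role (rows) in the 4 comparisons (panels), 1 point per gene, with called genes (FDR<10%) filled. Points of the inhibitors and target genes lie mostly left of 0 in the genotype panels, with Atf3 at -3.85 and Cxcl2 at -3.92 under vehicle.

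Values in parentheses below are log2 differences ± SE, U2AF1(S34F) minus U2AF1(WT) or drug minus vehicle, with the FDR of the edgeR test over all genes. Among the other Toll-like receptors, Tlr5, the flagellin receptor, was at 29.4 ± 6.12, 27.6 ± 5.94, 25.6 ± 3.37 and 24.9 ± 2.60 CPM in the 4 groups and was not called. Tlr3, Tlr11 and Tlr12 had group means of at most 1.15 CPM. Tlr11 fell in U2AF1(S34F) under vehicle (-0.72 ± 0.28, FDR 0.0630) and Tlr12 under the drug (-0.64 ± 0.26, FDR 0.0894), both on 10 to 87 counts per mouse. Of 5 co-receptors and ligand-binding genes, Lbp, the lipopolysaccharide-binding protein, rose with sudemycin D6 in U2AF1(WT) mice, from 63.7, 68.7, 73.1, 73.9 and 78.7 to 87.3, 89.5, 97.1, 119 and 144 CPM without overlap (log2 0.56 ± 0.13, FDR 0.0469). It was also higher in U2AF1(S34F) under vehicle (0.55 ± 0.13, FDR 0.00703). Cd180, a receptor-like relative of Tlr4, was lower in U2AF1(S34F) under vehicle (-1.12 ± 0.22, FDR 0.00324), at 10.8 to 26.6 against 28.1 to 42 CPM. Ly96, which encodes MD-2, was not called in any comparison.

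Of 8 genes for endosomal trafficking and processing, Ctsl, a protease that trims endosomal receptors, fell with the drug in U2AF1(WT) mice (-0.46 ± 0.10, FDR 0.0351). Between genotypes it was lower in U2AF1(S34F) under vehicle (-0.37 ± 0.10, FDR 0.0136) and higher under the drug (0.38 ± 0.12, FDR 0.0289). Slc15a4, an endolysosomal transporter used in Tlr7 and Tlr9 signalling, was lower in U2AF1(S34F) under vehicle (-0.44 ± 0.09, FDR 0.00283) and drug (-0.26 ± 0.09, FDR 0.050). Hsp90b1, the chaperone gp96, and Lgmn, another protease, were higher in U2AF1(S34F) under the drug (0.44 ± 0.14, FDR 0.0354, and 0.42 ± 0.18, FDR 0.0938). Unc93b1 was not called at the gene level.

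Of the adaptors other than Myd88, Ticam1 and Ticam2, which serve the Myd88-independent branch of Tlr3 and Tlr4, were lower in U2AF1(S34F) under vehicle (-0.35 ± 0.12, FDR 0.0366, and -0.33 ± 0.13, FDR 0.0647). Pik3ap1 was lower under the drug (-0.24 ± 0.10, FDR 0.0890), and Tirap, which bridges Tlr2 and Tlr4 to Myd88, was not called. Of 19 tested kinases and ubiquitin ligases, 1 was called for the drug in U2AF1(WT) and 2 in U2AF1(S34F) mice, against 3.07% and 10.8% of all genes. Ikbkb, the IκB kinase β, fell with the drug in U2AF1(WT) (-0.28 ± 0.08, FDR 0.0890), while Chuk, the IκB kinase α, rose (0.28 ± 0.05, FDR 0.0128) and Ikbkg fell (-0.21 ± 0.05, FDR 0.0345) in U2AF1(S34F). Between genotypes 1 was higher and 4 lower in U2AF1(S34F) under vehicle, and 4 higher and 6 lower under the drug. Of all genes, 19.7% were higher and 19.8% lower under vehicle, and 17.2% and 19.6% under the drug, so nothing is read from these counts. Ikbkb was lower in both (-0.59 ± 0.08, FDR 0.000307, and -0.24 ± 0.07, FDR 0.0251), as were Irak2 (-0.31 ± 0.10, FDR 0.0257, and -0.33 ± 0.07, FDR 0.00449) and Traf3 (-0.25 ± 0.08, FDR 0.0322, and -0.33 ± 0.08, FDR 0.0125). Tbk1, a kinase upstream of interferon regulatory factors, was higher in both (0.31 ± 0.08, FDR 0.0111, and 0.22 ± 0.08, FDR 0.0680), and Ikbke was lower under the drug (-0.31 ± 0.09, FDR 0.0261).

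Of 8 transcription factors, 5 were lower in U2AF1(S34F) in each genotype comparison and none was higher, next to 19.8% and 19.6% of all genes called lower. Under vehicle they were Irf5 (-0.63 ± 0.17, FDR 0.0169), Rel (-0.62 ± 0.10, FDR 0.000817), Relb (-0.49 ± 0.09, FDR 0.00170), Nfkb2 and Rela. Under the drug they were Irf7 (-0.52 ± 0.20, FDR 0.0710), Relb (-0.48 ± 0.11, FDR 0.00743), Rela (-0.41 ± 0.08, FDR 0.00304), Nfkb2 and Irf3. Irf7, which drives type I interferon downstream of endosomal receptors, was the member of this list called for sudemycin D6. It was at 37.8, 39.1, 39.2, 40.2 and 47.2 CPM under vehicle and 17.2, 17.3, 19, 23.6 and 38.7 CPM with the drug in U2AF1(WT) mice, with 1 drug-treated mouse within the vehicle group. It was at 28.5, 29.9, 31.7, 31.7 and 49.6 and 14.8, 14.9, 15.1, 17.8 and 18.1 CPM in U2AF1(S34F) mice, without overlap. It fell by 0.84 ± 0.19 on the log2 scale in U2AF1(WT) (edgeR FDR 0.0521) and by 1.09 ± 0.15 in U2AF1(S34F) mice (edgeR FDR 0.00211).

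Of 19 inhibitors, 1 rose and 5 fell with sudemycin D6 in U2AF1(WT) mice and 1 fell in U2AF1(S34F) mice, and 12 were lower in U2AF1(S34F) under vehicle and 13 under the drug. Of all genes, 1.18% rose and 1.89% fell with the drug in U2AF1(WT) and 5.85% fell in U2AF1(S34F) mice. Between genotypes 19.8% and 19.6% were lower. Atf3, a transcription factor that restrains cytokine genes, was at 58.7, 59.5, 60.1, 67.4 and 97.3 CPM in vehicle-treated U2AF1(WT) mice and at 8.12, 11.8, 13.6, 14.8 and 17 CPM with the drug. In U2AF1(S34F) mice it was at 3.11, 4.24, 4.82, 5.56 and 6.07 CPM under vehicle and at 3.52, 3.83, 4.19, 5.67 and 6.43 CPM with the drug, all below both U2AF1(WT) groups. Drug minus vehicle was -2.41 ± 0.20, FDR 6.07e-05 in U2AF1(WT) and -0.01 ± 0.21, FDR 0.980 in U2AF1(S34F) mice. The difference between these drug effects was 2.38 ± 0.30, FDR 0.000994, and Atf3 was the only pathway gene called in that interaction, in which 0.0130% of all genes were called.

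Nfkbiz, an IκB-like regulator of secondary response genes, was at 252, 269, 271, 277 and 313 CPM in vehicle-treated U2AF1(WT) mice and at 58.4, 66.7, 70.8, 81.6 and 103 CPM in vehicle-treated U2AF1(S34F) mice. It was lower in U2AF1(S34F) under vehicle (-1.87 ± 0.14, FDR 1.89e-06) and drug (-1.20 ± 0.12, FDR 5.81e-05), and lower with the drug in U2AF1(WT) (-0.94 ± 0.11, FDR 0.00103). Dusp1, a phosphatase of MAP kinases, also ran from 760.4 ± 244 CPM in vehicle-treated and 349.8 ± 34.3 CPM in drug-treated U2AF1(WT) mice to 173 ± 49.2 and 183 ± 37 CPM in U2AF1(S34F) mice. Its genotype differences were -2.15 ± 0.26, FDR 0.000266 under vehicle and -0.94 ± 0.13, FDR 0.000552 under the drug. Socs1, a brake on cytokine signalling, was lower in U2AF1(S34F) under the drug (-1.11 ± 0.35, FDR 0.0350). Its level was low, at 0.754 to 1.29 CPM in these mice and 1.53, 1.54, 1.82, 2.01 and 5.53 CPM in drug-treated U2AF1(WT) mice. The mouse at 5.53 CPM widened the difference. Nfkbie fell with the drug in U2AF1(S34F) (-0.29 ± 0.09, FDR 0.0723). Tnfaip3, the deubiquitinase A20, and Nfkbia were among the inhibitors lower in U2AF1(S34F) under vehicle. The drug comparison in U2AF1(WT) and the genotype comparison under vehicle share the vehicle-treated U2AF1(WT) mice, in which Atf3, Nfkbiz and Dusp1 were highest.

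Of 15 target genes 10 or 11 were tested, and 6 fell with sudemycin D6 in U2AF1(WT) mice, where none rose. These were Ccl4 (-2.12 ± 0.25, FDR 0.00101), Ptgs2 (-2.08 ± 0.46, FDR 0.0576), Il6 (-1.87 ± 0.44, FDR 0.0525), Ccl3, Cxcl2 and Il1b, which encode chemokines, cytokines and the prostaglandin enzyme COX-2. Il6 rested on few reads, at 0.124 to 1.19 CPM under vehicle and 0.128 to 0.210 CPM with the drug, and these groups overlapped. In U2AF1(S34F) mice 3 fell, among them Ptgs2 (-2.03 ± 0.62, FDR 0.0859) and Il1b (-0.85 ± 0.23, FDR 0.0557), and Nos2, the inducible nitric oxide synthase, rose (1.97 ± 0.46, FDR 0.0297). Nos2 also rested on few reads, at 0.0336 to 0.350 CPM under vehicle and 0.401 to 1.67 CPM with the drug in U2AF1(S34F) mice. Between genotypes 6 of 10 were lower in U2AF1(S34F) under vehicle and 5 of 10 under the drug, and none was higher. Of all genes, 19.8% and 19.6% were lower in these comparisons. With the drug, 1.89% fell in U2AF1(WT) and 5.85% in U2AF1(S34F) mice. Cxcl2, a neutrophil chemoattractant, was at 76.2, 79.2, 134, 165 and 185 CPM in vehicle-treated U2AF1(WT) and at 2.62, 5.10, 5.20, 5.24 and 24.5 CPM in vehicle-treated U2AF1(S34F) mice, without overlap (-3.92 ± 0.66, FDR 0.00316). Ccl3 was lower in U2AF1(S34F) in both treatments (-2.26 ± 0.25, FDR 0.000172, and -1.33 ± 0.26, FDR 0.00354), as was Ptgs2 (-2.25 ± 0.58, FDR 0.0200, and -2.22 ± 0.50, FDR 0.00782). Il1b was at 363 to 599.8, 155 to 394, 140.1 to 286 and 71.1 to 146 CPM in the 4 groups, and the genotypes did not overlap in either treatment. In the same mice the late neutrophil marker sum under vehicle, the monocyte sum under the drug and the macrophage sum in both treatments were higher in U2AF1(S34F) without overlap, as given above. Of their single markers, 3 of 6 were called higher, 2 higher and 1 lower, and 1 of 6 higher in each treatment. Of all genes, 19.7% were called higher in U2AF1(S34F) under vehicle and 17.2% under the drug. The median log2 difference of the late neutrophil markers under vehicle was 0.25. The late neutrophil sum under the drug and the monocyte sum under vehicle overlapped, and 3 of 6 monocyte markers were lower in U2AF1(S34F) under vehicle. The part of cell makeup in the differences of the target genes was not tested.

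Cassette exons of the pathway genes were tested with the same fit. The called ones were 3 of 363 for the drug in U2AF1(WT), 3 of 323 for the drug in U2AF1(S34F), 5 of 351 for the genotype under vehicle and 10 of 335 for the genotype under the drug, next to the 0.844%, 1.26%, 3.34% and 2.98% of all events given above. A 93-base exon of Irf7 (chromosome 7, 148450122 to 148450214, minus strand) was called for sudemycin D6 in both genotypes.
Irf7 93-base exon, 3′ splice site (chr7:148450212-148450234, minus strand, last 3 intron bases in capitals): cagctccaatttgccctCAGgcc
Ψ of this exon was 0.873, 0.894, 0.911, 0.939 and 0.940 under vehicle and 0.625, 0.679, 0.717, 0.836 and 0.875 with the drug in U2AF1(WT) mice, which overlapped in 1 mouse. It was 0.845, 0.867, 0.907, 0.919 and 0.934 and 0.740, 0.758, 0.772, 0.772 and 0.817 in U2AF1(S34F) mice, without overlap. Drug minus vehicle was -0.165 (edgeR FDR 0.00553, exact permutation p = 0.0159) and -0.123 (edgeR FDR 0.0211, exact permutation p = 0.00794). Neither passed with limma (FDR 0.692 and 0.123).

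The remaining calls for the drug were 2 overlapping exons of Ctss, which encodes cathepsin S, in U2AF1(WT) mice, whose groups did not overlap (-0.0279 and -0.0190, exact permutation p = 0.00794 for both). In U2AF1(S34F) mice they were exons of the ubiquitin ligase Peli2 (-0.0888, exact permutation p = 0.0238) and of Irak2 (-0.0425, exact permutation p = 0.0556). All were included less often with sudemycin D6.

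For the genotype, 2 exons were called in both treatments. That of the kinase Ripk1 was included more often in U2AF1(S34F) mice, under vehicle (0.0289, exact permutation p = 0.0873) and under the drug without overlap (0.0314, exact permutation p = 0.00794). That of the kinase Map3k7 was included less often (vehicle -0.0121, exact permutation p = 0.167, and drug -0.0105, exact permutation p = 0.167). Under vehicle, exons of Nfkbiz (0.108, exact permutation p = 0.103), Tab3 (-0.0984, exact permutation p = 0.167) and Cyld (-0.0481, exact permutation p = 0.0397) were also called.

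Under the drug, the exon of Tab2, a TAK1-binding protein, was included more often in U2AF1(S34F) mice without overlap (0.123, exact permutation p = 0.00794). Exons of Cd180 (0.0764, exact permutation p = 0.167) and 2 overlapping exons of Chuk (0.0289 and 0.0390, exact permutation p = 0.167 for both) were called in the same direction. Exons of Peli1 (-0.0516, exact permutation p = 0.0317), Nfkb1 (-0.0167, exact permutation p = 0.0238) and Unc93b1 (-0.0103, exact permutation p = 0.00794) were called as included less often, and that of Unc93b1 was included in at least 0.979 of reads in every mouse. The call of an Irak1 exon (-0.0554, exact permutation p = 0.333) was lost whichever mouse was left out (edgeR FDR 0.602 to 0.753). Sudemycin-treated U2AF1(WT) replicate 8 was at a Ψ of 0.333 next to 0.0641 to 0.110 in the other 4 mice of its group. Without this mouse the difference was -0.00653 (edgeR FDR 0.753). Among the pathway exons called between genotypes, those of Map3k7, Tab3, Peli1, Nfkb1 and Unc93b1 follow a TAG. All of them were included less often in U2AF1(S34F). The exons of Cyld and Irak1, also included less often, follow a CAG. Exons included more often follow a CAG (Ripk1, Nfkbiz, Cd180, Chuk) or an AAG (Tab2). The part of this base in the calls was not tested.

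Of the 24 calls in members and pathway genes, 8 were also made in each of the 10 fits that left out 1 mouse, and 1, that of Irak1, in none of them. The 8 were Myd88 exon 2 under vehicle, Tlr8 exon 2 under vehicle and drug, both exons of Ctss, both of Chuk, and the Irf7 exon for the drug in U2AF1(WT) mice. With the dispersion estimated by edgeR none of the events of members or pathway genes was called, and with limma 0, 0, 1 and 1 were.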

How the data were processed

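Per the labels and the methods of the study, stranded total RNA depleted of ribosomal RNA was sequenced as 2 × 126 bp and aligned by the authors with TopHat 2.0.8 to mouse build NCBI37/mm9. The authors deposited raw counts per gene and per splice junction. The program that counted genes is not given in the sources used here. Genes were tested with edgeR 4.0.16 (filterByExpr, TMM, robust quasi-likelihood fit, Benjamini-Hochberg over all genes tested, FDR<10%) in the 10 mice of the groups compared, and the interaction in all 20. CPM values use TMM factors, and log2 differences a prior count of 2. For each cassette exon with 10 or more reads per mouse on average, inclusion and skipping junction counts were tested with edgeR, with a coefficient per mouse and a dispersion of 0. This form had been picked in an earlier analysis of these data after others gave few or no calls, and limma 3.58.1 on Ψ and an estimated dispersion are given beside it. Exact permutation tests went through every split of the mice with Python 3.11.15 and numpy 2.4.6.

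The members and gene lists were chosen with earlier results of these data known. The members, U2af1, sex-linked genes, the other Toll-like receptors, in each list and comparison the up to 3 called genes with the largest log2 change, called cassette exons and, for each member, the 3 most correlated genes are named. Genes named beyond this rule, such as Tnfaip3, Nfkb2 and Ly96, were chosen after their values were seen. Lists of cell type markers were measured in the same fit. Transcript structure and sequence come from GENCODE M1 on the same build. The scripts were tested on simulated data. Alternatives were DESeq2 1.42.0, its size factors, no filter, autosomal genes only, 1 model of all mice, FDR<5%, other read minimums and Ψ formulas, a block on replicate number and leaving out each mouse. Deviations of same-numbered mice correlated at -0.0706 to 0.192 under vehicle and -0.175 to 0.369 under the drug, and the labels do not say that a number marks a shared origin, so the numbers were not taken as pairs. Drug and vehicle groups of a genotype share no numbers. Nothing in the labels says that the mice of a group came from separate donor pools, so p-values measure the spread between recipients. Gene totals ran from 41145892 to 62138138 counts per mouse.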

Additional observations from a re-analysis of the deposited data

Results flagged for a closer look

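Ψ of Myd88 exon 2 in sudemycin-treated U2AF1(WT) replicate 9 was 0.983, above the other 4 mice of its group, which lay at 0.940 to 0.945. Its gap to the nearest mouse was large against the range of the group by Dixon's test, and 1 of the 52 groups examined stood out in this way, where chance gives about 1 in 20. The mouse is also 1 of the 2 that lay apart in the principal component analysis. Without it, drug minus vehicle in U2AF1(WT) mice was -0.00819 (edgeR FDR 0.711).

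The response of Atf3 to sudemycin D6 differed between the genotypes, with a difference of drug effects of 2.38 on the log2 scale (edgeR interaction test over all genes, FDR 0.000994). It was lower with the drug in U2AF1(WT) mice and nearly level in U2AF1(S34F) mice, in which it was already at 3.11 to 6.07 CPM under vehicle. Genotype and sex-linked transcripts cannot be told apart in this contrast either.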

How the results depend on the processing

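The log2 differences of the 10 members moved by less than the spread between mice in all 600 values from fits that left out a mouse and in 245 values from other settings. Small ones changed sign when a mouse was left out, namely Tlr6 (-0.03 to 0.06), Cd14 (-0.16 to 0.01) and Tlr8 (-0.25 to 0.01) for the drug in U2AF1(WT), Tlr6 (-0.08 to 0.03), Tlr13 (-0.02 to 0.09) and Myd88 (-0.04 to 0.07) for the genotype under vehicle, Tlr7 (-0.04 to 0.18) and Myd88 (-0.06 to 0.09) under the drug, and Myd88 (-0.07 to 0.08) in the interaction. Tlr9 for the drug in U2AF1(S34F) ran from 0.22 to 0.58. The number of called pathway genes in U2AF1(S34F) mice with the drug, 8, was 18 with DESeq2 (8 higher and 10 lower, against 2 and 6) and 5 at FDR<5%, and that of the interaction, 1, was 6 with DESeq2 and 2 without a filter. Leaving out each mouse gave 8 to 18 called pathway genes for the drug in U2AF1(WT), 5 to 10 for the drug in U2AF1(S34F), 32 to 40 for the genotype under vehicle, 30 to 38 under the drug and 1 to 4 for the interaction (4 without vehicle-treated U2AF1(S34F) replicate 1, 3 without its replicate 5 or without sudemycin-treated U2AF1(WT) replicate 9, and 2 without vehicle-treated U2AF1(WT) replicate 2 or sudemycin-treated U2AF1(S34F) replicate 9). The calls in Ψ depended on the test. Myd88 exon 2 under vehicle kept its difference of 0.0313 and lost its call with limma (FDR 0.212) and with an estimated dispersion (FDR 0.522). Tlr8 exon 2 kept 0.138 under vehicle and lost its call with an estimated dispersion (FDR 0.522), and kept 0.118 under the drug and lost it with limma (FDR 0.681) and an estimated dispersion (FDR 0.562). With the replicate number as a block in limma, these differences were 0.0292, 0.125 and 0.116 (FDR 0.656, 0.656 and 0.626), and no cassette event of members or pathway genes was called (0 under vehicle and 0 under the drug), whereas 32 pathway genes were called under the drug, 28 of them among the 39 called without the block. Not every mouse correlated best with its own number. Called cassette events, 3, 3, 7 and 11 in the 4 comparisons, were 0, 0, 1 and 1 with limma and 0, 0, 0 and 0 with an estimated dispersion, and ranged from 3 to 6, 0 to 4, 2 to 7 and 5 to 12 when a mouse was left out. Leaving out a mouse gave -0.00819 to 0.00518 and -0.0183 to -0.0119 for the drug difference in Ψ of Myd88 exon 2 in U2AF1(WT) and U2AF1(S34F), 0.0277 to 0.0367 and 0.0142 to 0.0249 for the genotype difference under vehicle and drug, and -0.0198 to -0.00642 for the interaction. The uncalled drug difference in U2AF1(WT) turned positive in 5 of these, at 0.00518, 0.00166, 0.00145, 0.00249 and 0.00152. For Tlr8 exon 2 the same ranges were -0.0629 to 0.00572, -0.0586 to -0.0169, 0.128 to 0.152, 0.0952 to 0.164 and -0.0433 to 0.0253, and the uncalled values turned to 0.00572 for the drug in U2AF1(WT) and to 0.0253 and 1.3e-05 for the interaction. The cause of these changes was not tested. Depth limits the level of Tlr9, with 74 to 806 counts per mouse, and the Ψ of the Tlr7 exons, with as few as 7.00 reads in a mouse.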

Other observations

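Genes with a profile like that of a member over the 20 mice were ranked by Pearson's r of log2 CPM, given here as a description, since the mice share the group differences. Tlr9 was closest to Nav1 (r = 0.958, and 0.894 within groups) and Disc1 (0.953, and 0.894 within groups), Tlr1 to Me2 (0.937, and 0.777) and Copb1 (0.936, and 0.778), and Myd88 to Prelid1 (0.928, and 0.881). Tlr2 was closest to Dusp1 (0.912), Fndc3b (0.912) and Osm (0.903), and within groups these values were 0.390, 0.234 and 0.599. Tlr4 was closest to Naa16 (0.904, and 0.768), Tlr8 to Nptn (0.903, and 0.892), Tlr7 to Klra17 (0.867, and 0.359), Cd14 to Dda1 (0.858, and 0.626), Tlr6 to Ifitm2 (0.810, and 0.796) and Tlr13 to Ugt1a7c (0.809, and 0.711). No gene of the member list was among the 3 closest genes of another member.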
